A study of Homo sapiens with 6 samples.

Results

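The S100 genes encode small calcium-binding proteins, and 10 of them were followed in MDA-MB-231 cells, a human breast cancer line of the triple-negative class with mesenchymal-like traits. The members were S100A2, S100A3, S100A4, S100A6, S100A10, S100A11, S100A13, S100A14, S100A16 and S100P, taken by gene name. They are 10 of the 21 S100 genes and of the 20260 genes in the table. RNA was sequenced from 3 libraries of cells transfected with a plasmid carrying ABI2, an adaptor protein of the actin-regulating WAVE complex, and from 3 libraries of cells transfected with an empty vector. Both groups were thus transfected cells of the same line, and the series asks what ABI2 does in them. Nothing in the labels states that replicates came from separate cultures. The p-values therefore reflect only how far these libraries spread, which may be technical.

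S100 proteins carry a pair of EF hands, the helix-loop-helix units that hold calcium, and most form dimers. On binding calcium they open a surface that grips target proteins such as annexins, myosin and other scaffold proteins, and some are secreted and act on the receptor RAGE. Most of the human genes lie together on the long arm of chromosome 1. Several are raised in carcinomas. S100A4 is known as a metastasis factor in mammary tumours, and S100A2 as a candidate tumour suppressor of mammary epithelium.

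The libraries were of like depth, at 39243211 to 40241508 counts with ABI2 and 38453152 to 40309690 counts with the empty vector. ABI2 itself was at 222 ± 2.27 CPM in ABI2 libraries and 82.5 ± 1.2 CPM in control libraries (CPM is the count scaled to the TMM-adjusted library size; SD, n = 3 each). Of 7 genes that mark this line, none was at 0, and their summed level was 4201 to 4372 TPM (transcript abundance scaled for length and library) with ABI2 and 3680.2 to 3715 TPM in control. VIM alone was at 3301 ± 69.8 TPM with ABI2 and 2944 ± 37.1 TPM in control. Of the 7, 4 were called higher in edgeR and 2 lower, EGFR (log2 fold change -0.40 ± 0.04) and CAV1 (-0.89 ± 0.12). Over all genes tested, 35.1% were called higher and 38.0% lower. With a correction for transcript GC content, described below, 5 of the 7 were called higher and none lower, against 28.7% and 22.5% of all genes. Of 7 genes known to be low or absent in the line, PGR and CDH1 were at 0 in every library, and the summed level was 6.83 to 7.57 TPM with ABI2 and 5.78 to 6.20 TPM in control. GATA3 of that list had 757 counts with ABI2 and 486 in control and was called higher (log2 fold change 0.73 ± 0.14, edgeR adjusted p = 0.00240), and its part in the S100 results was not tested. Among markers of blood, liver, stromal and endothelial cells, PTPRC and CD3E were at 0 in every library, and the summed level of the markers was 2.87 to 3.62 TPM with ABI2 and 2.96 to 4.58 TPM in control. PECAM1 of that list had 330 counts with ABI2 and 679 in control and was called lower (log2 fold change -0.94 ± 0.13). COL1A1 had 706 counts with ABI2 and 593 in control and was called higher (0.35 ± 0.11). With the GC correction PECAM1 had -0.88, and COL1A1 had -0.23 and did not pass. Fold changes across all genes followed the GC content of the transcripts, so each S100 result is given beside that trend, and its part in the results was not tested.

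S100A6, S100A11 and S100A16 made up most of the S100 transcripts in these cells. S100A6, or calcyclin, had 7372, 7466 and 8005 TPM in ABI2 libraries, against 6443, 6020.0 and 6395 TPM in control libraries. It stood at rank 8 to 9 of all genes by TPM with ABI2 and at rank 15 to 16 in control. S100A11, a partner of annexin A1, had 1909.9, 1879 and 1885 TPM with ABI2, against 1956, 1996 and 2015 TPM in control. S100A16, a widely expressed member, had 704, 716 and 800.1 TPM with ABI2, against 511, 511 and 530.4 TPM in control. S100A6 and S100A16 were thus higher in every ABI2 library on this scale, and S100A11 was lower in every one. In bulk RNA, fewer cells with a transcript and less of it per cell cannot be told apart.

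S100A10, S100A13 and S100A4 formed a middle tier. S100A10, or p11, binds annexin A2 and is known for having lost calcium binding. It had 356, 357 and 409.8 TPM with ABI2, against 345, 349.9 and 354 TPM in control. S100A13, which takes part in the non-classical release of FGF1, had 304, 293 and 326 TPM with ABI2, against 299.7, 283 and 305 TPM in control. S100A4, which binds non-muscle myosin IIA, had 252, 241 and 290.0 TPM with ABI2, against 153, 152 and 212 TPM in control. The groups did not overlap for S100A10 and S100A4, and they overlapped for S100A13. Control replicate 3 stood above the other control libraries for S100A4.

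S100A3, S100A2 and S100P were low and S100A14 was near absent. S100A3, a cysteine-rich protein of the hair cuticle, had 75.4, 87.9 and 80.3 TPM with ABI2, against 59.6, 51.7 and 62.3 TPM in control. S100A2 had 28.5, 27.4 and 33.8 TPM with ABI2, against 15.6, 16.1 and 17.2 TPM in control. S100P, first found in placenta, had 18.7, 19.4 and 20.7 TPM with ABI2, against 11.1, 10.4 and 11 TPM in control. These 3 genes were higher in every ABI2 library than in any control library. S100A14, an epithelial member, had 7, 6 and 5 counts with ABI2, against 12, 7 and 10 counts in control. The order of the 10 levels was the same in both groups, and no gene's range overlapped that of the next gene in the order.

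**Figure D1:**
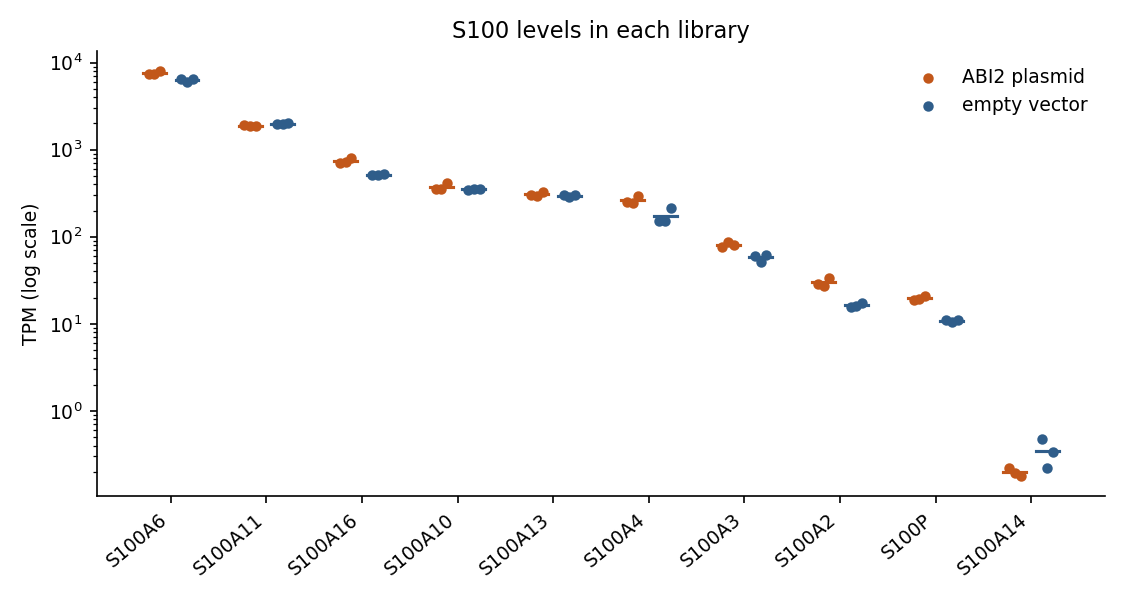
TPM of the 10 S100 members in each library on a log scale, ordered by mean level, with a point per library and a line at the mean of each group (3 ABI2 and 3 control libraries). S100A6 lies at 6020.0 to 8005 TPM, and S100A14 lies below 1 TPM in every library.

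Summed over the 10 members, S100 transcripts came to 11019.8, 11086 and 11852 TPM in ABI2 libraries, against 9794, 9391 and 9903 TPM in control libraries. That is 1.13 ± 0.0463% of all transcripts with ABI2 and 0.970 ± 0.0270% in control (SD, n = 3 each). The groups did not overlap, and an exact permutation test (two-sided, 6 libraries) gave p = 0.1, the smallest it can give. S100A6 supplied 67.3 ± 0.333% of this sum with ABI2 and 64.8 ± 0.865% in control. S100A11 supplied 16.7 ± 0.737% with ABI2 and 20.5 ± 0.661% in control. Without S100A6 the sum was 3705 ± 123 TPM with ABI2 and 3411 ± 85.3 TPM in control. These sums were not corrected for GC content, and the part of the GC trend in them was not tested. In the GC-corrected fit described below, 4 members were called higher and 4 lower. S100A6 and S100A11 were among the lower ones, at log2 fold changes of -0.15 and -0.30.

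Of the 9 members that passed the filter on low counts, 8 were called higher with ABI2 and none lower, in edgeR's quasi-likelihood test adjusted over all 13325 genes tested. In the same test 73.1% of all genes were called, 35.1% as higher and 38.0% as lower. The median log2 fold change was 0.65 over these 9 members and -0.01 over all genes tested. In CPM with TMM scaling, all 9 were higher in each ABI2 library than in any control library, and so were 37.8% of all genes tested. In TPM the groups overlapped for S100A13, and S100A11 was lower in every ABI2 library. The calls depended on how GC was treated. After a correction for the GC content of the transcripts, which takes out true differences tied to GC as well, 4 members were called higher and 4 lower, where 51.1% of all genes were called, 28.7% as higher and 22.5% as lower. The median over the 9 members was then 0.11, and 0.04 over all genes.

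S100A2 and S100P had the largest rises, 2.07-fold and 1.99-fold in mean CPM. S100A2 had 16.4, 15.8 and 19.4 CPM in ABI2 libraries, against 8.04, 8.44 and 8.44 CPM in control libraries. Its log2 fold change was 1.05 ± 0.11 (SE; edgeR adjusted p = 0.000126). S100P had 15.1, 15.6 and 16.7 CPM with ABI2, against 8.01, 7.78 and 8.01 CPM in control. Its log2 fold change was 0.99 ± 0.09 (edgeR adjusted p = 6.56e-05). Both kept a call as higher in the GC-corrected fit, at 0.70 ± 0.10 for S100A2 and 0.73 ± 0.08 for S100P. They were also the members called higher when transcript length was corrected for as well, at 0.50 ± 0.09 and 0.54 ± 0.07.

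S100A4, S100A16 and S100A3 had smaller rises. S100A4 had 93.1, 89.6 and 108 CPM with ABI2, against 50.7, 52.2 and 70.6 CPM in control. Its log2 fold change was 0.74 ± 0.14 (edgeR adjusted p = 0.00272). The third control library was high for S100A4, and without it the log2 fold change was 0.91. S100A16 had 449, 459 and 512 CPM with ABI2, against 293, 305 and 309 CPM in control, or 0.65 ± 0.06 as a log2 fold change (edgeR adjusted p = 7.19e-05). S100A3 had 38.9, 44.9 and 40.8 CPM with ABI2, against 26.8, 24.5 and 28.4 CPM in control, or 0.65 ± 0.09 as a log2 fold change (edgeR adjusted p = 0.000493). The groups were separate for all 3 genes. The whole of S100A3 lies inside the span of S100A4 on the same strand, so reads may have been shared between them. In the GC-corrected fit S100A4 and S100A16 were called higher, at 0.45 ± 0.13 and 0.18 ± 0.05, and S100A3 had 0.11 ± 0.07 and did not pass (edgeR adjusted p = 0.234). With length corrected for as well, none of these 3 passed, at 0.26 for S100A4, -0.01 for S100A16 and -0.06 for S100A3.

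For S100A6, S100A10, S100A13 and S100A11 the direction depended on the GC correction. S100A6 had 3063, 3114 and 3339 CPM with ABI2, against 2397, 2324 and 2409.9 CPM in control, or 0.42 ± 0.05 as a log2 fold change (edgeR adjusted p = 0.000162) and of -0.15 ± 0.04 after GC correction (edgeR adjusted p = 0.0121). S100A10 had 269, 271 and 311 CPM with ABI2, against 234, 246 and 243 CPM in control, a log2 fold change of 0.24 ± 0.07 and of -0.22 ± 0.06 after GC correction. S100A13 had 117, 113 and 126 CPM with ABI2, against 104, 101 and 108 CPM in control, a log2 fold change of 0.19 ± 0.06 and of -0.25 ± 0.05 after GC correction. The rises of S100A10 and S100A13 were small and ABI2 replicate 3 was the highest library for both. Without control replicate 1 neither passed, at 0.22 and 0.19, and S100A13 did not pass without control replicate 2, at 0.18. S100A11 had 711, 703 and 704 CPM with ABI2, against 652, 691 and 681 CPM in control, which made a log2 fold change of 0.07 ± 0.04 that did not pass (edgeR adjusted p = 0.178). After GC correction it was called lower, at -0.30 ± 0.04. Library size without TMM gave S100A10, S100A13 and S100A11 0.14, 0.09 and -0.03, and none of them passed, and the median of all genes was then -0.10.

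**Figure D2:**
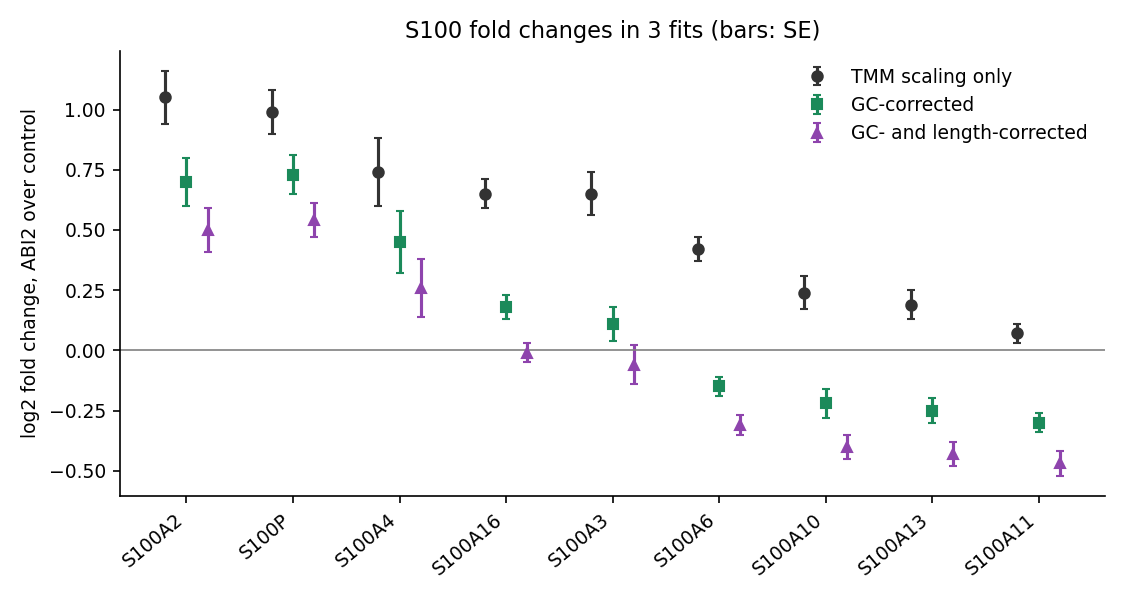
Log2 fold change of the 9 tested S100 members, ABI2 over control, with SE bars, in the edgeR fit with TMM scaling only, with a GC correction and with a GC and length correction (3 libraries a group). The values of all 9 members are lower with each further correction, and S100A2 and S100P are the members above 0 with a call in all 3 fits.

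S100A14 was too sparse to test. Its 18 counts in the ABI2 libraries and 29 in the control libraries gave a ratio of 0.620 to library size, with a 95% Clopper-Pearson interval of 0.324 to 1.15 that covers counting error only. A difference was not detectable at this depth. Of the other 11 S100 genes, 9 had no count in any library, among them S100A8 and S100A9, the subunits of calprotectin, and S100B, the glial member. A count of 0 allows up to 0.0713 to 0.0790 CPM in a library, taking 3 counts as the floor. S100A1, a muscle member whose gene overlaps S100A13 on the other strand, had 30, 70 and 26 counts with ABI2, against 44, 59 and 46 counts in control. S100A5 had 60, 68 and 49 counts with ABI2, against 66, 61 and 44 counts in control. The groups overlapped for both and neither passed, with log2 fold changes of -0.15 ± 0.40 for S100A1 and 0.15 ± 0.22 for S100A5. S100A1 was called lower without ABI2 replicate 2, at -0.73.

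The members are alike in GC content, from 52.8% for S100P to 60.2% for S100A6, and in length, from 594 bases for S100A11 to 1279 bases for S100P, over the transcript with the longest coding sequence. The tested genes were ordered by GC content and divided into 10 classes of equal size. S100A2, S100A4, S100A10, S100A11 and S100A13 fell in the class from 52.9% to 56.2% GC, where the median log2 fold change was 0.42, 59.8% of genes were called higher and 6.08% lower. S100A2 lay above 97.3% of the genes of that class and S100A4 above 85.6%. S100A10 lay above 30.9%, S100A13 above 27.6% and S100A11 above 20%. S100P lay above 98.2% of the genes in its class, from 49.8% to 52.9% GC, where the median was 0.21. S100A3 and S100A16 lay above 63.2% and 63.3% of theirs, where the median was 0.55, and S100A6 lay above 26.1% of its own, where the median was 0.61. S100A2 and S100P thus stood near the top of genes of like GC content, and S100A6, S100A10, S100A11 and S100A13 stood below the median of their GC classes. Fold changes also followed transcript length, with a median of 0.35 in the shortest of 10 length classes and -1.01 in the longest. All tested members but S100P fell in the shortest length class, where S100A2 lay above 96.7% of genes, S100A6 above 54.8%, S100A10 above 43.1%, S100A13 above 41.1% and S100A11 above 33.9%. S100P lay above 96.2% of the genes in the next class.

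**Figure D3:**
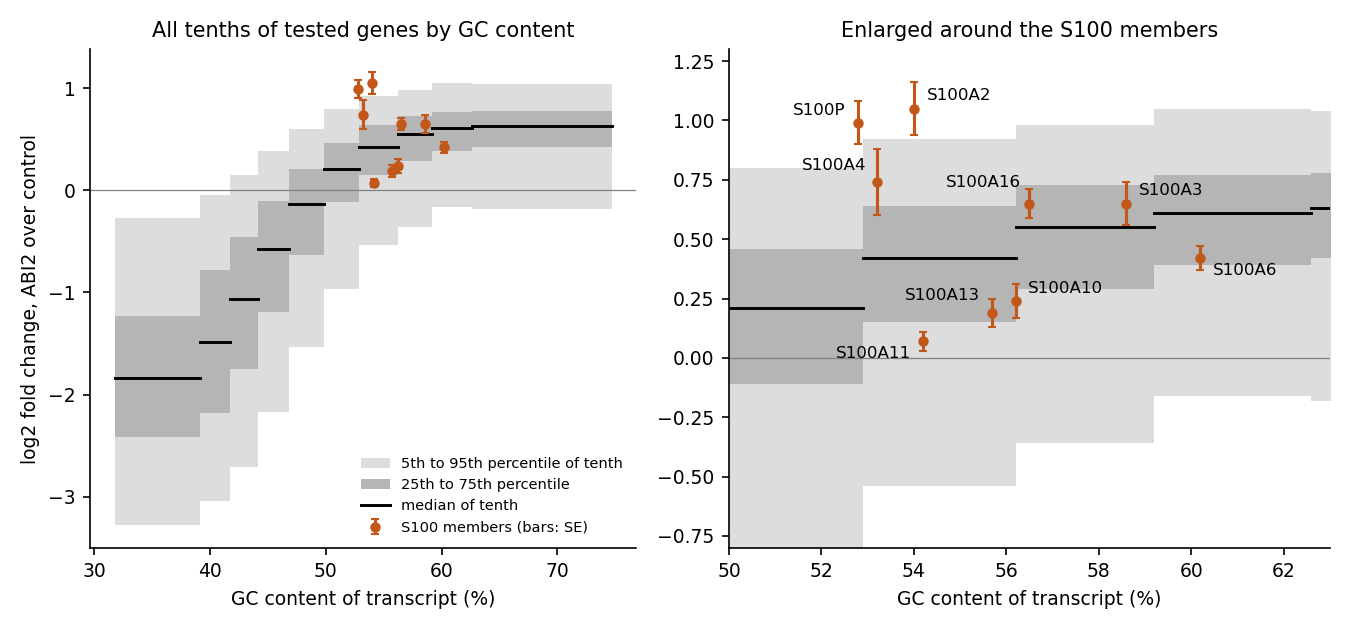
Log2 fold change of ABI2 over control against transcript GC content, with grey bands for each of 10 GC classes of the tested genes, black lines for the medians and points with SE bars for the 9 tested S100 members. S100A2 at 1.05 and S100P at 0.99 lie above 97.3% and 98.2% of the genes of their classes, and S100A11 at 0.07 lies above 20% of its class.

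Ratios between members within a library do not depend on how libraries are scaled, and they varied between the groups. The ratios were not corrected for transcript GC content or length, and the part of those trends in them was not tested. The log2 ratio of S100A2 to S100A11 counts was -5.44, -5.48 and -5.18 in ABI2 libraries, against -6.34, -6.35 and -6.34 in control libraries. The difference was 0.98, the largest of 36 pairs among the 9 tested members. S100A2 and S100A11 had the largest and the smallest fold change of the 9, so this pair largely restates those values. The log2 ratio of S100P to S100A11 was -5.56, -5.49 and -5.39 with ABI2, against -6.35, -6.47 and -6.41 in control, a difference of 0.93. The log2 ratio of S100A6 to S100A11 was 2.11, 2.15 and 2.24 with ABI2, against 1.88, 1.75 and 1.82 in control. The difference was 0.35. S100A6 has 60.2% GC and S100A11 54.2%. Their log2 fold changes were 0.42 and 0.07, but -0.15 and -0.30 after GC correction. S100A2, with 54.0% GC, had 0.70 after GC correction. The ABI2 and control libraries did not overlap for 29 of the 36 pairs, and for 71.9% of all 86849610 pairs of tested genes with counts in every library, so the count is near that of pairs in general. The exact permutation test gave p = 0.1 for those, the smallest it can give, and 0.124 after Benjamini-Hochberg adjustment over the 36 pairs. The log2 ratio of S100A2 to S100P was 0.12, 0.01 and 0.21 with ABI2, against 0.00, 0.12 and 0.07 in control, and the groups overlapped. That of S100A16 to S100A3 also overlapped, at 3.51 ± 0.15 with ABI2 and 3.51 ± 0.11 in control (SD, n = 3 each).

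**Figure D4:**
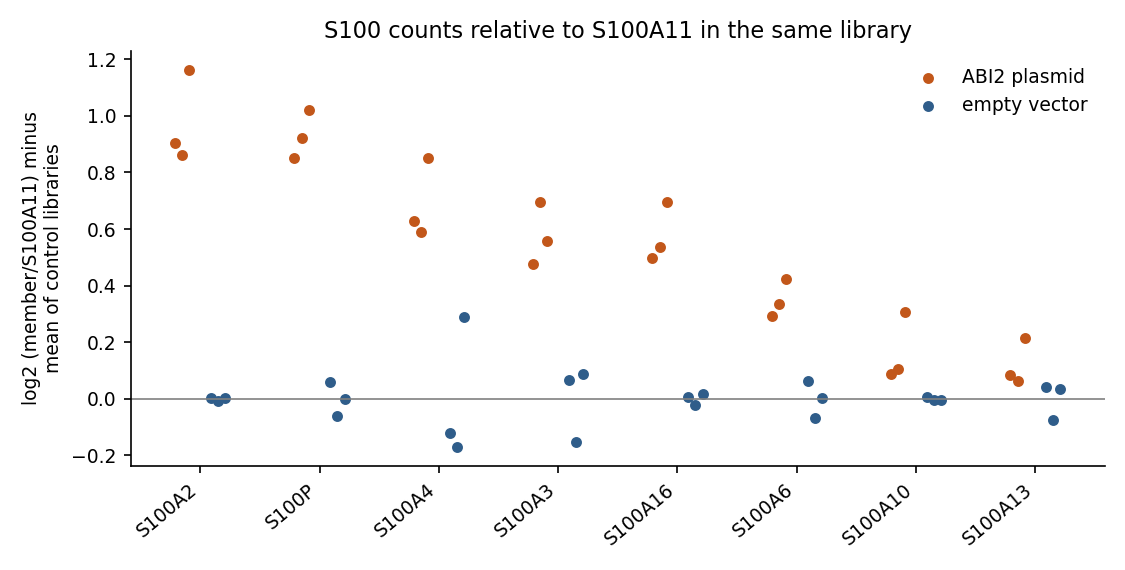
Log2 ratio of the counts of each tested S100 member to those of S100A11 in the same library, minus the mean of the 3 control libraries, with a point per library. The ABI2 libraries lie above the control libraries for all 8 members, by 0.98 on average for S100A2 and by 0.12 for S100A13. S100A11 had the smallest fold change of the tested members, so higher means for the others follow from this choice of reference. The ratios are not corrected for GC content or length.

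The deposited counts and length-scaled values of the members moved nearly alike. The length implied by count per FPKM was 1087 ± 0.918 bases with ABI2 and 1047 ± 31.9 bases in control for S100A2, and 788 ± 0.506 bases with ABI2 and 776 ± 0.888 bases in control for S100A6 (SD, n = 3 each). Over the 9 tested members the log2 difference was 0.01 to 0.05, with no overlap between the groups (exact permutation p = 0.1). Of all tested genes with values, 42.4% did not overlap on this measure, and 37.2% were higher in every ABI2 library. The median over all tested genes differed by 0.00. With count per TPM scaled to the library median, the groups overlapped for S100A13. A change of this size is small beside the fold changes of S100A2 and S100P, and is of the order of the S100A11 value.

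Except for S100P, the members lie on chromosome 1 (GRCh38, minus strand). S100A10 spans chr1:151982915-151994390 and S100A11 spans chr1:152032506-152037035. The others lie close together, from S100A6 at chr1:153534599-153536244 over S100A4 at chr1:153543613-153550136, S100A3 at chr1:153547329-153549372, S100A2 at chr1:153561108-153567890, S100A16 at chr1:153606886-153613083 and S100A14 at chr1:153614255-153616986 to S100A13 at chr1:153618799-153628239. S100P lies at chr4:6693069-6697169 on the plus strand. The table lists S100A2 as ENSG00000196754, S100P as ENSG00000163993, S100A6 as ENSG00000197956 and S100A11 as ENSG00000163191. The member with the largest rise and the member that did not pass, S100A2 and S100A11, are both in this chromosome 1 region, and S100P, with a rise like that of S100A2, is on another chromosome. Of 22 other genes within 250 kb of a chromosome 1 member, 13 were tested, 5 were called higher and 3 lower, with a median log2 fold change of 0.05. Among all genes tested, 35.1% were called higher and 38.0% lower. CHTOP, a chromatin target of PRMT1, had 0.33 ± 0.05, SNAPIN, a SNARE-associated protein, 0.40 ± 0.07, and NPR1, a natriuretic peptide receptor, 0.88 ± 0.18. TCHH, trichohyalin of the hair follicle, had -1.08 ± 0.25. After GC correction CHTOP had 0.29 and TCHH -1.53, while SNAPIN at 0.15 (edgeR adjusted p = 0.104) and NPR1 at 0.30 (edgeR adjusted p = 0.215) did not pass. The count of lower calls was 1 without ABI2 replicate 2 and without control replicate 2. After GC correction 3 neighbours were called higher and 4 lower, where 28.7% and 22.5% of all genes were. With limma on TPM values 2 neighbours were called higher, as were 3727 or 3613 of the 13325 genes tested. The family of long fused S100 proteins of the skin, which includes TCHH, had 7 genes in the table, of which 4 were tested, none was called higher and 3 lower.

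RefSeq promoter windows were found for all 10 members, 14 windows in all (GRCh38.p14). The 250 bases before the transcription start are shown for S100P, S100A4, S100A6 and S100A11. S100P, S100A4 and S100A6, the most abundant member, rose without GC correction and each have 1 window. S100A11 did not pass. S100A3 and S100A10 also rose and have 1 window each, which are not shown. After GC correction S100A6 and S100A10 were called lower. The sequences shown are written 5′ to 3′ on the strand of the gene. Capitals mark matches on either strand to a TATA box core (TATAAA), a GC box core (GGGCGG) or an AP-1 site (TGANTCA).

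S100P, chr4:6693628-6693877, plus strand: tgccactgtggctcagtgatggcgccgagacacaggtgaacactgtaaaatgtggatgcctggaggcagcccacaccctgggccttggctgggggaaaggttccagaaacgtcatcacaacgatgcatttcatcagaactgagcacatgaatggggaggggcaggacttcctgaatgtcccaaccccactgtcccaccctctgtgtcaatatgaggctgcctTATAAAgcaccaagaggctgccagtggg

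S100A4, chr1:153545807-153546056, minus strand: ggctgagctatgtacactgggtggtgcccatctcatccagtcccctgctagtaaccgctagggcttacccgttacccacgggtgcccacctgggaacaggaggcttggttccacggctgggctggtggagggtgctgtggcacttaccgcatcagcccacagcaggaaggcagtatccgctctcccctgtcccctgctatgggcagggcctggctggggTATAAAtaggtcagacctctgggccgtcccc

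S100A6, chr1:153535992-153536241, minus strand: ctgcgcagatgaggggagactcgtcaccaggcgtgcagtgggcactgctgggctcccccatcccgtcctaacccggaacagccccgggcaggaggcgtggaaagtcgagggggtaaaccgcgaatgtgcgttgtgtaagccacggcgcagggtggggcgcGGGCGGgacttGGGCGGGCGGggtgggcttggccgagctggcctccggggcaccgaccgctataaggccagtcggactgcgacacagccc

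S100A11, chr1:152037005-152037254, minus strand: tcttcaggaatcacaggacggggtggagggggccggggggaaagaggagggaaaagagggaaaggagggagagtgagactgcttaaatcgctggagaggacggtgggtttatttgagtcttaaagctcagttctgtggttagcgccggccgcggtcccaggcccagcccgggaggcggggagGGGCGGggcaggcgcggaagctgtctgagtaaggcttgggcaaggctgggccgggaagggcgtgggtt

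A TATA box core began 28 bases before the start of S100P and 31 bases before that of S100A4. The S100A6 window held 3 GC box cores, of which the last 2 overlap, and the S100A11 window held 1. Over the 14 windows of the members, 3 held a TATA box core, 6 a GC box core and 2 an AP-1 site. Over all 35116 RefSeq windows of the same 250 bases, 10.7% held a TATA box core, 42.6% a GC box core and 6.6% an AP-1 site. The 2 AP-1 matches were in the S100A3 window and in 1 of the S100A2 windows. The other TATA box core was in 1 of the S100A13 windows. No window of S100A2, S100A3, S100A6, S100A10 or S100A16, which also rose, held a TATA box core. The S100A3 and S100A10 windows each held 1 GC box core, as did 1 of the S100A16 windows. A tie between motifs and fold changes was not tested. These matches describe the letters only, and which start the cells used is not known from gene counts.

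The annexins are membrane-binding proteins, several of which pair with S100 members. Of 10 annexins tested, 3 were called higher and 7 lower, with a median log2 fold change of -0.23 and a median GC content of 45.7%. In the same test 35.1% of all genes were called higher and 38.0% lower. ANXA1, the partner of S100A11, was at 162 ± 10.3 CPM with ABI2 and 571 ± 80.4 CPM in control, or -1.82 ± 0.11 as a log2 fold change (edgeR adjusted p = 1.84e-05) and of -0.19 after GC correction. ANXA3 was lower, at -1.22 ± 0.18, and ANXA11 and ANXA6 were higher, at 0.69 ± 0.06 and 0.55 ± 0.08. After GC correction ANXA3 had -0.51, ANXA11 had 0.46, and ANXA6 had 0.10 and did not pass (edgeR adjusted p = 0.205). ANXA2, the partner of S100A10, was named after its values were seen. It was at 951 ± 124 CPM with ABI2 and 1439 ± 47.6 CPM in control, a log2 fold change of -0.60 ± 0.09 and of -0.58 after GC correction. The count of lower annexins was 3 without control replicate 1 or 2, and 4 without control replicate 3, ABI2 replicate 1 or ABI2 replicate 3. After GC correction 5 annexins were called higher and 3 lower, where 28.7% and 22.5% of all genes were.

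Binding partners and receptors moved in both directions, as did genes in general. Of 14 tested, 5 were called higher and 7 lower, with a median log2 fold change of -0.26 and a median GC content of 47.5%, and after GC correction 6 were called higher and 6 lower. Of all genes tested, 35.1% were called higher and 38.0% lower, and 28.7% and 22.5% after GC correction. TLR4, a receptor of S100A8 and S100A9, was at 7.15 ± 0.913 CPM with ABI2 and 49.8 ± 4.63 CPM in control, a log2 fold change of -2.80 ± 0.12. AHNAK, a large scaffold bound by the S100A10 and annexin A2 complex, was at 225 ± 21.1 CPM with ABI2 and 629 ± 44.6 CPM in control, a log2 fold change of -1.49 ± 0.08. The S100A4 partner PPFIBP1 had -1.55 ± 0.09 and the S100A6 partner SUGT1 had -1.54 ± 0.11. After GC correction these 4 genes had -1.17, -1.43, -0.37 and -0.23 and were all called lower.

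Some partners were named after their values were seen, for the member they bind. MYH9, the heavy chain of non-muscle myosin IIA bound by S100A4, had a log2 fold change of 0.37 ± 0.05, and of -0.16 after GC correction. For S100P, the actin linker EZR had 0.40 ± 0.04 and the scaffold IQGAP1 had -3.45 ± 0.23, with 0.26 and -2.42 after GC correction. CACYBP, the calcyclin-binding protein, had -1.03 ± 0.12, and 0.35 after GC correction. AGER, which encodes RAGE, was at 3.11 ± 0.710 CPM with ABI2 and 2.55 ± 0.253 CPM in control and did not pass. S100PBP, the S100P-binding protein, had -1.19 ± 0.09, and -0.04 after GC correction.

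Other EF-hand genes were also divided, as were genes in general. Of 30 tested, 14 were called higher and 13 lower, with a median log2 fold change of 0.11, and 13 higher and 7 lower after GC correction. The shares over all genes tested were 35.1% higher and 38.0% lower, and 28.7% and 22.5% after GC correction. PLS3, an actin bundler, was at 24.5 ± 5.44 CPM with ABI2 and 222 ± 21.7 CPM in control, a log2 fold change of -3.18 ± 0.17. EFHD2 had 0.88 ± 0.06, the calmodulin gene CALM3 had 0.73 ± 0.05 and PEF1 had 0.72 ± 0.05. After GC correction PLS3 had -1.53, EFHD2 0.30, CALM3 0.23 and PEF1 0.31.

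**Figure D5:**
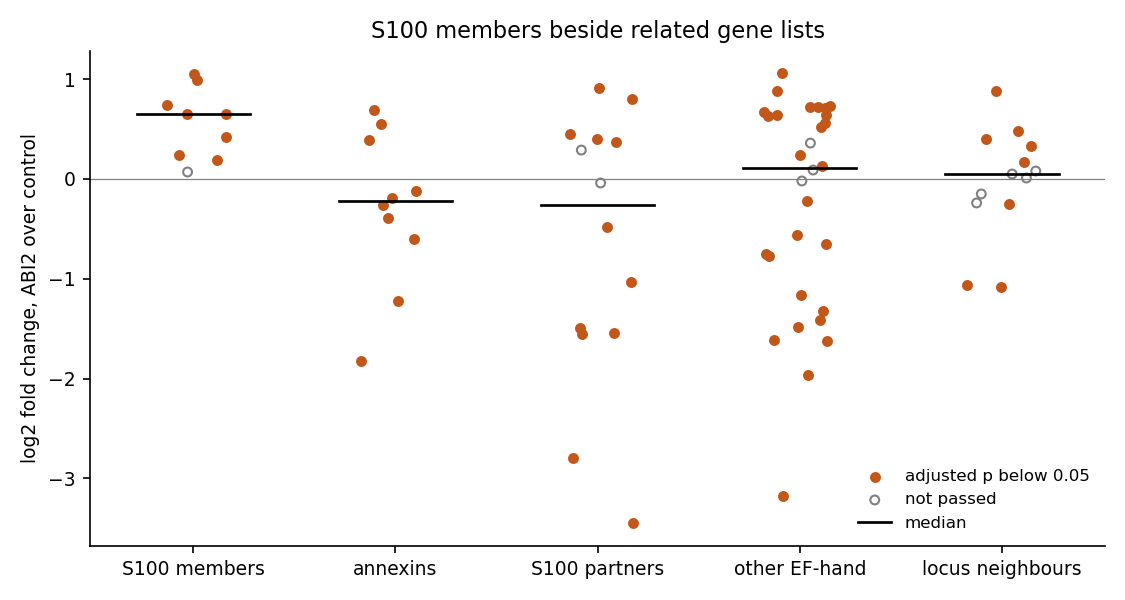
Log2 fold change, ABI2 over control, of the tested S100 members, annexins, S100 partners, other EF-hand genes and locus neighbours, with filled points for edgeR adjusted p below 0.05, open points for genes that did not pass and lines at the medians. The S100 members lie between 0.07 and 1.05, and the other lists hold genes on both sides of 0. The median GC content is 55.7% for the members and 45.7% to 52.5% for the other lists. After GC correction, not drawn here, the members also lie on both sides of 0, from -0.30 to 0.73.

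The genes whose scaled levels followed S100A2 most closely over the 6 libraries were PDCD2L, HLA-B and PLAU. The measure was the Euclidean distance between log2 CPM values centred on each gene's mean, among 11969 genes with a mean of at least 1 CPM, and it was 0.0613, 0.0794 and 0.0807. PLAU, the urokinase gene, was at 328, 319 and 369 CPM with ABI2, against 166, 168 and 175 CPM in control. The distance takes in the difference between the groups, so log2 fold changes near that of S100A2 follow from the choice of these 3 genes. They were 1.02, 1.0 and 1.0, and 0.66, 0.40 and 0.74 after GC correction.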

How the data were processed

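Raw counts per gene, TPM values and FPKM values of 6 libraries were deposited by the authors in 1 table, per the file headers. The submitters' processing notes name GRCh38, StringTie 1.3.3b, HISAT2 2.1.0, Trimmomatic and FastQC 0.11.2. Annotation and counting program were not given in the sources used here, nor was the strand setting, so reads of overlapping genes cannot be told apart. Within each library, deposited TPM was a constant multiple of FPKM. Of 20261 rows, 1 broke off and was left out. Libraries of a group differed by more than counting noise (chi-square per degree of freedom 21.12 to 48.37).

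Counts were tested with edgeR 4.0.16 (R 4.3.3): TMM scaling, filterByExpr with a minimum count of 10, robust quasi-likelihood F tests of ABI2 against control, and Benjamini-Hochberg adjustment over 13325 genes at 0.05. SEs are the fold change over the square root of F. Single values were compared by exact two-sided permutation. Groups and replicate numbers came from sample titles.

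The GC correction fitted each library's log2 CPM deviations with a natural spline of GC content with 5 degrees of freedom and used it as an offset. GC content and length came from GENCODE 29, which matched 20221 rows. Coordinates are the table's, and 4 members differ there from GENCODE 29. Promoters came from RefSeq, and motifs were chosen after the sequences were seen. The procedure was also tested on simulated data. The outcome of that test is not given here and is not used as support for the results.

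Alternatives were no TMM, RLE size factors, DESeq2 1.42.0, limma 3.58.1 (voom, and log2 of TPM plus 1 or 0.1), other count filters, replicate terms, GC and length corrections, and each library left out. Members and lists were chosen with earlier results of these data known. Named genes are all members, the other S100 genes with counts, up to 4 genes with the smallest p from each list of annexins, partners, EF-hand genes and neighbours, the 3 genes most like the member with the largest rise (no member fell), and ABI2. Outside this rule, marker genes, S100 genes without counts, and ANXA2, MYH9, EZR, IQGAP1, CACYBP, AGER and S100PBP are named, the last 7 chosen after their values were seen.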

Additional observations from a re-analysis of the deposited data

How the results depend on the processing

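The corrections for GC, and for GC and length together, moved members between calls. Length alone was not run. With the GC correction, alone and with the replicate block, 4 members were called higher and 4 lower, and with GC and length corrected 2 were higher and 4 lower. Genes called lower in all numbered 5057 without correction, and 2993 with GC corrected, 2735 with GC corrected and the replicate block and 2934 with GC and length corrected. Genes called higher in the same fits numbered 4680, 3820, 3478 and 3735, of 13325 tested. S100A6, S100A10, S100A11 and S100A13 turned to log2 fold changes of -0.15, -0.22, -0.30 and -0.25 with GC corrected, to the same values with the block added, and to -0.31, -0.40, -0.47 and -0.43 with GC and length corrected. In that last fit S100A3, S100A16 and SNAPIN turned to -0.06, -0.01 and -0.05. In the other fits, those that left out a library included, 6 to 8 members were called higher and none lower. Over all genes, 3613 to 4839 were called higher and 4713 to 5420 lower there, of 12519 to 16184 tested. The log2 difference in the summed level was 0.22 in TPM, 0.37 in scaled CPM and 0.12 without S100A6. None of these sums was corrected for GC. For S100A11 the direction also turned without TMM (-0.03) and with limma on TPM (-0.07), where it did not pass, and limma on log2 of TPM plus 0.1 put the median of all genes at -0.13. Correlations were 0.04, 0.06 and 0.12 for same-numbered libraries and -0.10 to 0.05 for the others. They are too weak to tell whether the replicate numbers pair the libraries. With the replicate block alone 8 members were still called higher, with S100A2 at 1.04. S100A14 had too few counts to test.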
